A study of Mus musculus with 4 samples.

Results

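The tumour necrosis factor (TNF) superfamily was followed in cultured mouse cortical cells with and without fibroblast growth factor 2 (FGF2). Its genes were taken by name: protein-coding genes whose symbol starts with Tnfsf or Tnfrsf, together with Tnf, Lta, Ltb, Ltbr, Cd40, Cd27, Fas, Fasl, Eda and Edar. This gave 42 of the 55421 genes listed in the count files, 17 ligands and 25 receptors. Of the receptors, 6 carry a death domain, 15 signal through TRAF proteins without one, and 4 are decoys or have no signalling domain. A gene with 10 or fewer counts in every library was called not measured. By that rule 19 genes were measured, 4 ligands and 15 receptors, and 23 were not.

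Prefrontal cortex (PFC) of wild-type C57BL/6 mice was taken on the day of birth (P0), dissociated and kept in culture for 10 days, and the RNA of the whole cultures was sequenced. Both groups were grown in neurobasal medium with B27 and GlutaMAX. In 2 libraries FGF2 had been added at 5 ng/mL, and in 2 libraries it was left out. The libraries of a group are called replicates 1 and 2. Whether they came from separate cultures is not stated, and the study's methods speak of technical replicates, so the p-values given here measure the spread between these libraries, which may be technical. Counts on genes ranged from 9166432 to 10799886 per library, and 3 counts corresponded to 0.277 to 0.331 CPM, the unit used throughout, which sets counts relative to the TMM-adjusted size of each library. At this depth a gene at or under that level was not told apart from one listed at 0.

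TNF ligands are membrane proteins that assemble as trimers, and some, TNF among them, are cut from the cell surface by the protease ADAM17. Many death domain receptors recruit FADD or TRADD, which lead to caspase-8 or to the kinase RIPK1, whereas Edar uses the adaptor Edaradd. The other signalling receptors bind TRAF proteins and feed the NF-kB pathways. In the brain TNF is known mainly as a product of microglia and astrocytes, and its receptors are found on neurons and glia.

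With FGF2, Tnf, the receptors Fas and Tnfrsf1b, and the pair Tnfsf9 and Tnfrsf9 rose by more than 2-fold, and Tnfrsf1a, Tnfrsf10b, Ltbr and Eda rose by less. Tnfrsf19 and Tnfrsf21 fell. By the quasi-likelihood test of edgeR, with p-values adjusted over all genes tested, 9 of the 19 measured genes were higher with FGF2, 2 were lower and 8 did not pass. Over all 17144 genes tested, 20.7% were higher and 19.9% lower, 40.5% in all, so calls were common in this comparison. A rise that passed the test and exceeded 2-fold was found for 5 measured genes, and for 5.22% of all genes. No measured gene passed with a fall of more than 2-fold, against 2.38% of all genes. The median log2 fold change of the 19 genes was 0.43, beside -0.00082 for all genes, whose quartiles were -0.27 and 0.29. Both FGF2 libraries lay above both libraries without FGF2 for 11 measured genes and below them for 4, and the groups overlapped for 4. Over all genes tested, groups that did not overlap were found for 67.1%, 33.6% above and 33.4% below.

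These counts describe the measured genes and not the whole family. A gene that exceeds 10 counts only where it is high enters the measured set through that group, which favours a difference. Over 10 counts in a single group were 4 measured genes, Tnf and Tnfsf9 with FGF2 and Tnfsf13b and Tnfrsf25 without it. Of these, Tnfsf13b and Tnfrsf25 did not pass the test. Of the 5 genes that passed with a rise of more than 2-fold, only Fas and Tnfrsf1b were over 10 counts in every library. The 5 beside 5.22% of all genes are therefore a description only. Among the 14 genes over 10 counts in every library, 6 were higher and 2 lower. Over all genes with at least 10 counts in every library, 3333 were higher and 3253 lower. Their share of the genes under that filter was not computed, so the 6 and 2 are a description.

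**Figure D1:**
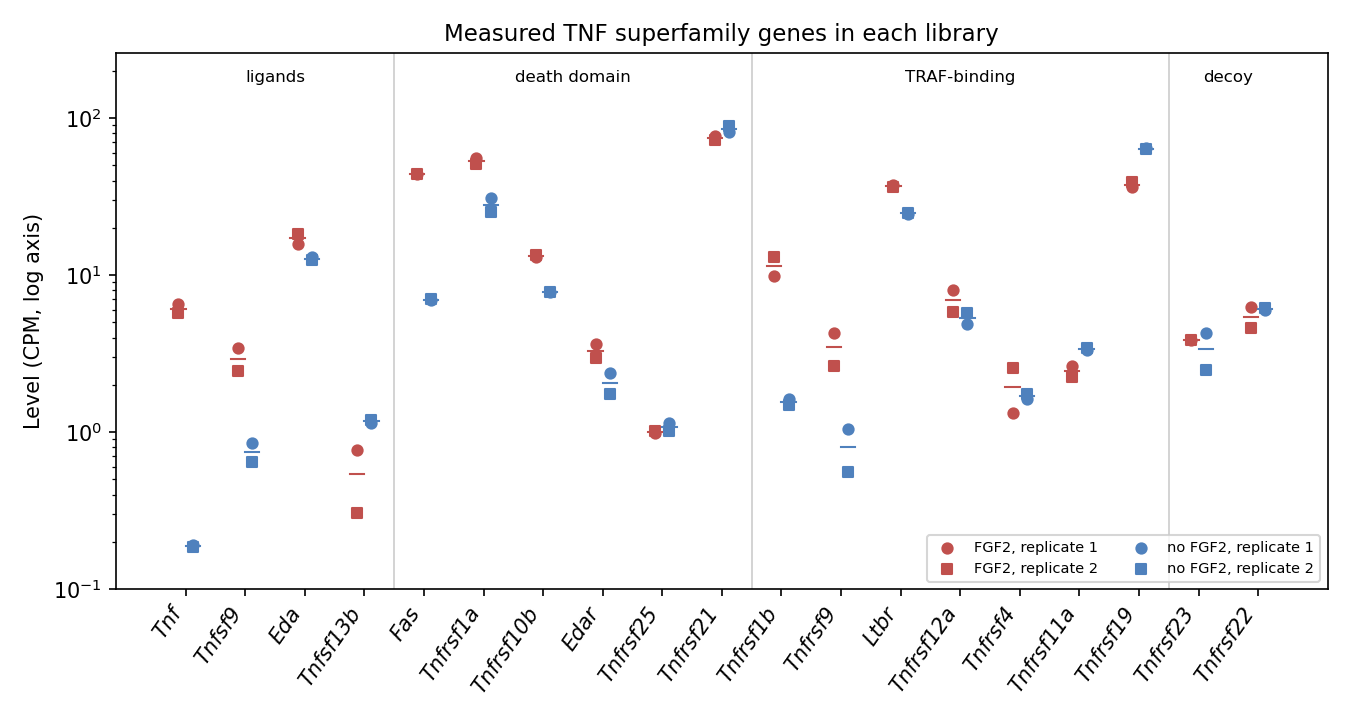
Level (CPM, log axis) of the 19 measured TNF superfamily genes in each of the 4 libraries, with circles for replicate 1, squares for replicate 2 and short lines for group means. Tnf, Fas and Tnfrsf1b show the widest gaps between the groups, and Tnfrsf19 and Tnfrsf21 lie lower with FGF2.

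Tnf encodes the founding ligand of the family. It was at 6.50 and 5.69 CPM with FGF2 (59 and 56 counts) and at 0.190 and 0.185 CPM without it (2 and 2 counts). Both libraries without FGF2 were thus at the limit of detection, and both libraries with FGF2 were far above it. The ratio of the summed levels was 32.4, with a 95% exact interval of 12.3 to 121.1 that covers counting error only. The rise passed the test (log2 fold change 4.93 ± 0.53 SE, edgeR adjusted p = 2.98e-19), and 28 of the 17144 genes rose further.

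TNF is bound by a pair of receptors. Tnfrsf1a, the death domain receptor, is widely expressed, and Tnfrsf1b, which binds TRAF proteins, is more restricted. Tnfrsf1b was at 9.92 and 13.0 CPM with FGF2 and at 1.62 and 1.48 CPM without it. The groups were well apart, and the gene rose 7.38-fold (log2 fold change 2.88 ± 0.28 SE, edgeR adjusted p = 2.31e-23). Tnfrsf1a was at 55.3 and 50.9 CPM with FGF2, against 30.8 and 25.4 CPM without it. Again neither group reached the other, with a smaller rise of 1.89-fold (log2 fold change 0.92 ± 0.10 SE, edgeR adjusted p = 7.97e-19). Per kilobase of exon, the level of Tnfrsf1b was 0.122 and 0.173 of that of Tnfrsf1a with FGF2 and 0.0356 and 0.0395 without it. Tnfrsf1a therefore remained the more abundant TNF receptor RNA in every library, by a narrower margin with FGF2. With 2 libraries against 2, an exact permutation test of a single ratio cannot go below p = 0.333 (two-sided), so the change of the ratio was not tested further.

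In bulk RNA fewer cells of a type and less RNA per cell cannot be told apart, and this holds for every gene here. Microglia are a known source of both Tnf and Tnfrsf1b. The 12 microglia markers together were at 42.8 to 47.2 CPM with FGF2 and at 26.1 to 27.6 CPM without it. Of 8 tested, 5 were higher, among them Csf1r, Cx3cr1, C1qb and Ptprc, and 3 did not pass (Trem2, Tyrobp and C1qa), with a median log2 fold change of 0.90. P2ry12, Tmem119, Aif1 and Itgam were too low to be tested. Over all genes tested, 20.7% were higher and 19.9% lower. The part of microglia in the rises of Tnf and Tnfrsf1b was not tested.

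The stretches of 250 bases before the start sites of the genes with the largest rises, Tnf, Tnfrsf1b and Fas, are given here from RefSeq (GRCm38.p6, the mm10 assembly), to show which short elements they hold and how unlike one another they are. They end at the base before the start site and are written 5′ to 3′ on the strand of the gene. Capitals mark a TATA box (TATAAA) or an AP-1 element (TGAGTCA).
Tnf, chr17:35202008-35202257, minus strand: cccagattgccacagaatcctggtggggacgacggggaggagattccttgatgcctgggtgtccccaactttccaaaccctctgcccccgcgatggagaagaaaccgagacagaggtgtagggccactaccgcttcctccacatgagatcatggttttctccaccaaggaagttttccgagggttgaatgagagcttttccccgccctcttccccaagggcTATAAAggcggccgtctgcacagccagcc
Tnfrsf1b, chr4:145246871-145247120, minus strand: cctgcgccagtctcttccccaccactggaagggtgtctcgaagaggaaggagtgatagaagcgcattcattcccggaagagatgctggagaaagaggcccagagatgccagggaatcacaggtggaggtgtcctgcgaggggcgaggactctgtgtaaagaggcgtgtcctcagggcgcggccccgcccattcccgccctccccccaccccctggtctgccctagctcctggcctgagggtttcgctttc
Fas, chr19:34290409-34290658, plus strand: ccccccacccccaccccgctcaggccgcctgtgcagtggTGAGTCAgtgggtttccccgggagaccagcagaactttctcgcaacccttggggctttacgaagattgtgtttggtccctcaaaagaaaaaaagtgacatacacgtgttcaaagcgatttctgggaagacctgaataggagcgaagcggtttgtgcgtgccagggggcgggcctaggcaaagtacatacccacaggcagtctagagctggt

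Such windows were found for 34 of the 42 genes and were searched on both strands for the TATA box, the AP-1 element and the kappa-B consensus, the element bound by NF-kB. The TATA box of Tnf begins 29 bases before its start site, and the AP-1 element of Fas begins 211 bases before. Both elements were also found in genes that did not pass or were not measured: TATAAA was in the windows of 6 of the 34 genes (Tnf, Tnfrsf23, Lta, Tnfsf11, Tnfsf18 and Tnfrsf17) and TGAGTCA in 6 (Fas, Tnfrsf9, Tnfsf13b, Tnfrsf8, Tnfsf13 and Tnfsf14), and of these only Tnf, Fas and Tnfrsf9 were higher. The window of Tnfrsf1b held none of the motifs searched. Over 32851 RefSeq windows of the same length, TATAAA was present in 12.4%, TGAGTCA in 4.46% and the kappa-B consensus in 7.25%. These shares count windows, whereas the members are counted as genes with a match in any of their windows. Tnfrsf9, Tnfrsf19, Tnfrsf25 and Tnfsf13b have more than 1 window, so the units differ. Among the measured genes a kappa-B match was found for Tnfrsf9, 1 of the 7 higher genes with a window, and for Tnfrsf25, 1 of the 7 that did not pass, and for neither of the 2 lower genes. Ltb and Tnfrsf8, which were not measured, also held a match. The match of Tnfrsf9 lies before the downstream of its start sites, inside an exon of other transcripts, and 30 bases around it are shown with the match in capitals.
Tnfrsf9, chr4:150927947-150927976, plus strand: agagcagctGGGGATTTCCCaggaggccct
A match describes these letters only, and a window without a match says nothing about the factor elsewhere.

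Fas, the death domain receptor for Fas ligand, recruits FADD and caspase-8. Its level was 44.1 and 44.1 CPM with FGF2 and 6.95 and 7.02 CPM without it (400 and 434 counts against 73 and 76). The libraries of a group were nearly equal and the groups lay far apart. Fas rose 6.3-fold (log2 fold change 2.66 ± 0.14 SE, edgeR adjusted p = 1.5e-77), and 129 genes rose further. Its ligand Fasl was not measured, at 0 and 1 counts in the FGF2 libraries and 2 and 0 counts in the others. RNA of the receptor was thus plain in every library, while that of the ligand reached at most 2 counts.

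Tnfsf9 (4-1BB ligand) and its receptor Tnfrsf9 (4-1BB), a costimulatory pair of immune cells, were both low. Tnfsf9 was at 3.42 and 2.44 CPM with FGF2 and 0.857 and 0.647 CPM without it. Tnfrsf9 was at 4.30 and 2.64 CPM with FGF2 and 1.05 and 0.554 CPM without it. For each gene both FGF2 libraries exceeded both others, although the replicates of Tnfrsf9 differed more, in proportion, than those of Tnfsf9. Tnfsf9 rose 3.84-fold (1.94 ± 0.50 SE on the log2 scale, edgeR adjusted p = 3.96e-04). The rise of Tnfrsf9 was 4.28-fold (2.10 ± 0.47 SE on the log2 scale, edgeR adjusted p = 4.34e-05). Behind these folds stand 31 and 24 counts of Tnfsf9 against 9 and 7, and 39 and 26 counts of Tnfrsf9 against 11 and 6. Exons of Tnfsf9 share 14.9% of their bases with Gm11110 on the opposite strand, and the strand setting of the counting is not given in the sources used here. Of 10 lymphocyte markers none was measured, 7 of them, with Cd3e, Cd3d, Cd3g, Cd8a, Ms4a1 and Ncr1 among these, were at 0 in every library, and their sum was 0.441 to 0.712 CPM with FGF2 and 0.370 to 0.476 CPM without it.

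Tnfrsf10b is the mouse death receptor for TRAIL. It was at 13.1 and 13.5 CPM with FGF2 and at 7.81 and 7.76 CPM without it, with both FGF2 libraries above both others. The rise was 1.71-fold (log2 fold change 0.77 ± 0.19 SE, edgeR adjusted p = 1.74e-04). Its transcript shares stretches of at least 100 bases at 95% identity or more with 23 other genes, so reads from such stretches may be missing from the count. The ligand Tnfsf10 (TRAIL) was at 1 count in each library. Tnfrsf22 and Tnfrsf23, decoy receptors for TRAIL that lack a death domain, did not pass the test. Tnfrsf22 was between 4.58 and 6.28 CPM with FGF2 and at 6.00 and 6.19 CPM without it. Tnfrsf23 was at 3.86 CPM in both FGF2 libraries and at 4.28 and 2.49 CPM in the others. The groups overlapped for both decoys, and the log2 fold changes were -0.17 ± 0.25 SE and 0.19 ± 0.32 SE (edgeR adjusted p = 0.632 and 0.682). Tnfrsf22 also has near-identical stretches, in 17 other genes. The difference between the death receptor and its decoys was not itself tested.

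Ltbr, the lymphotoxin beta receptor, feeds the non-canonical NF-kB pathway. Its level was 37.3 and 36.2 CPM with FGF2 and 24.7 and 24.8 CPM without it. The replicates lay close together and the groups were clearly apart, a rise of 1.49-fold (log2 fold change 0.57 ± 0.11 SE, edgeR adjusted p = 2.51e-06). None of its ligands was measured: Lta was at 0 in every library, Ltb at 1 and 7 counts in the FGF2 libraries and 3 and 2 in the others, and Tnfsf14 (LIGHT) at 4 counts in a single library without FGF2.

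Genes of the family lie in clusters, and neighbours did not share a pattern throughout. On chromosome 6 Ltbr and Tnfrsf1a lie 35.5 kb apart and both rose, whereas Cd27, 69.6 kb from Ltbr, was at 0 in every library. On chromosome 17 Tnf lies between Ltb, 3.06 kb away, and Lta, 1.16 kb away, and only Tnf of these was measured. Tnfrsf8, 20.3 kb from Tnfrsf1b on chromosome 4, was not measured (0 and 1 counts in the FGF2 libraries, 4 and 4 in the others).

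The receptors that fell were among the most abundant of the family. Tnfrsf19 (TROY), an orphan receptor of neural progenitors that can stand in for p75 in the Nogo receptor complex, was at 36.6 and 38.9 CPM with FGF2 and at 64.2 and 63.2 CPM without it. No library with FGF2 came near the others. It fell by 0.75 on the log2 scale (± 0.09 SE, edgeR adjusted p = 7.29e-16), so that the level without FGF2 was 1.69-fold that with it. Tnfrsf21 (DR6), a death domain receptor of neurons and oligodendrocyte precursors, was at 76.6 and 72.7 CPM with FGF2 and at 81.4 and 89.0 CPM without it. The groups did not overlap, but the gap between the closest libraries was smaller than the gap between the replicates without FGF2. It fell by 0.19 on the log2 scale (± 0.07 SE, edgeR adjusted p = 0.0247). That call was lost with DESeq2 (adjusted p = 0.214), without FGF2 replicate 2 (edgeR adjusted p = 0.153) and without the no-FGF2 replicate 2 (edgeR adjusted p = 0.344).

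Beside these falls, the 8 pan-neuronal markers together were at 2712 to 2750 CPM with FGF2 and at 3721 to 3749 CPM without it, with 6 lower, 1 higher and 1 that did not pass. The 8 astrocyte markers stood at 12340 to 12460 CPM against 7498 to 7546 CPM, with 7 higher and 1 that did not pass. Of 9 oligodendrocyte lineage markers, 8 were tested and all 8 were higher, at a sum of 1792 to 1803 CPM against 547 to 557 CPM. These counts stand beside 20.7% higher and 19.9% lower over all genes tested. Gfap was the largest part of the astrocyte sum, at a mean of 5793 CPM with FGF2 against 2776 CPM without it. S100b did not pass, and Nefl was the neuronal marker that was higher. The summed marker RNA thus differed between the 2 groups, and whether the numbers of cells differed was not tested. The part of these cell types in the rises and falls of the receptors was not tested.

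Ectodysplasin signalling, best known from hair, tooth and gland development, runs from the ligand Eda through the receptor Edar to the adaptor Edaradd. Eda was at 15.9 and 18.4 CPM with FGF2 and at 13.0 and 12.5 CPM without it, with both FGF2 libraries above the others. On the log2 scale it rose by 0.43 (± 0.16 SE, edgeR adjusted p = 0.017). The call was lost with DESeq2 (adjusted p = 0.229), without FGF2 replicate 2 (edgeR adjusted p = 0.205) and without the no-FGF2 replicates 1 and 2 in turn (edgeR adjusted p = 0.0691 and 0.127). Edar was low, at 3.64 and 2.95 CPM against 2.38 and 1.76 CPM, and its log2 fold change of 0.67 ± 0.39 SE did not pass (edgeR adjusted p = 0.162). Eda2r, which binds the other splice form of the ligand, did not pass either, at 0.20 on the log2 scale (edgeR adjusted p = 0.364). Edaradd went the other way: it was at 4.52 and 6.00 CPM with FGF2 and at 15.1 and 11.5 CPM without it, and fell by 1.33 on the log2 scale (± 0.21 SE, edgeR adjusted p = 1.06e-09). Ligand and adaptor thus moved in opposite directions, the ligand by a call that some settings lost.

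**Figure D2:**
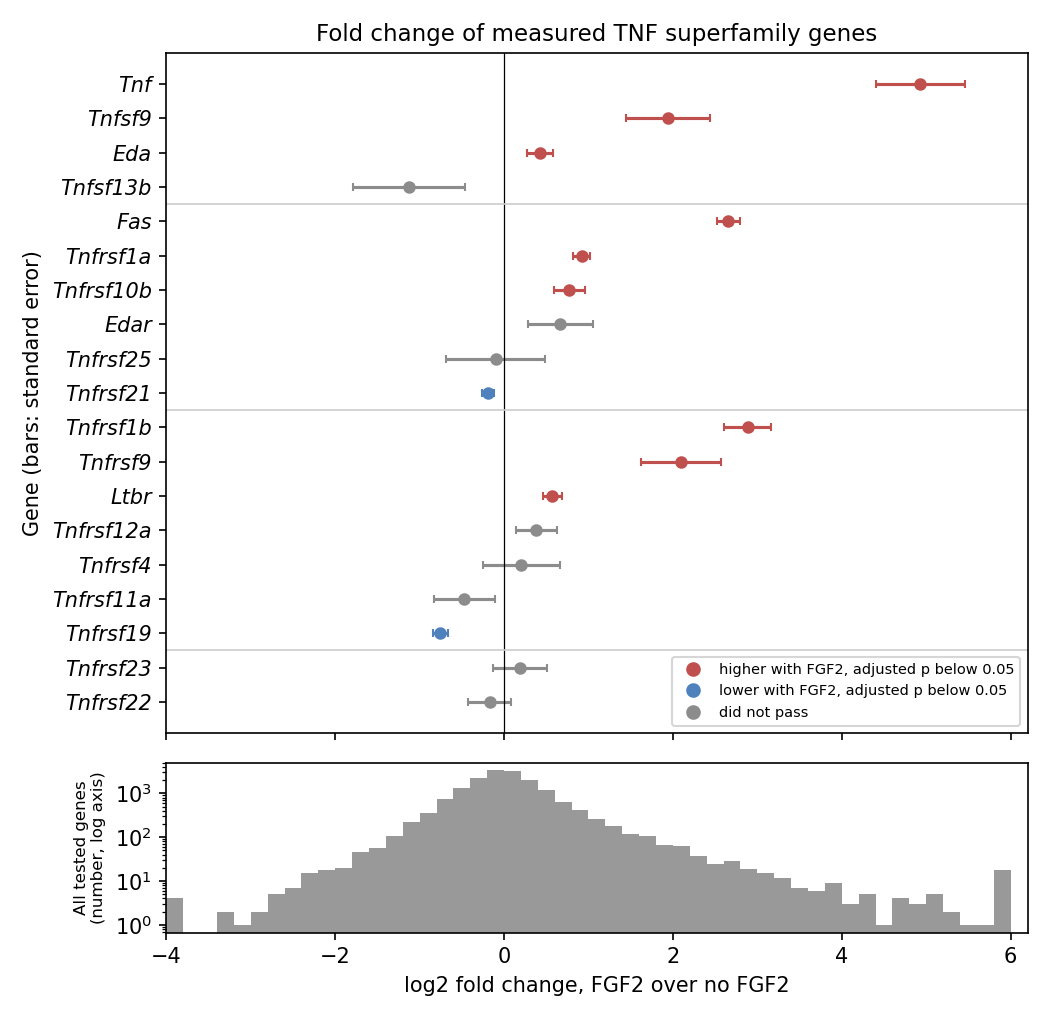
Log2 fold change, FGF2 over no FGF2, of each of the 19 measured genes with its standard error (upper panel) above the distribution over the 17144 genes tested (lower panel, log count axis, end bars holding all genes beyond the axis). Tnf lies at 4.93, the largest fall that passed is that of Tnfrsf19 at -0.75, and the middle of all genes is near 0.

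The other measured genes did not pass. Tnfsf13b (BAFF), a survival factor for B cells, was at 0.771 and 0.305 CPM with FGF2 and 1.14 and 1.20 CPM without it, with 3 to 13 counts per library (log2 fold change -1.12 ± 0.66 SE, edgeR adjusted p = 0.170). Tnfrsf11a (RANK) was at 2.65 and 2.24 CPM against 3.33 and 3.42 CPM (edgeR adjusted p = 0.321). In both, the FGF2 libraries were the lower ones and the groups did not overlap, but the adjusted p missed the threshold. The log2 differences of Tnfrsf12a, the receptor for TWEAK, and of Tnfrsf4 (OX40) were 0.38 ± 0.24 SE and 0.21 ± 0.46 SE (edgeR adjusted p = 0.218 and 0.765). Tnfrsf25, another death domain receptor, lay between 0.992 and 1.14 CPM in all 4 libraries. A miss at this depth does not show that these genes stayed the same.

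The 23 genes that were not measured had at most 7 counts in any library. They are 13 ligands (Lta, Ltb, Fasl, Tnfsf4, Tnfsf8, Tnfsf10, Tnfsf11, Tnfsf12, Tnfsf13, Tnfsf14, Tnfsf15, Tnfsf18 and Tnfsfm13) and 10 receptors (Cd27, Cd40, Tnfrsf8, Tnfrsf11b, Tnfrsf13b, Tnfrsf13c, Tnfrsf14, Tnfrsf17, Tnfrsf18 and Tnfrsf26). Lta, Tnfsf4, Tnfrsf18 and Cd27 were at 0 in every library. Cd40, a receptor of B cells and other antigen presenting cells, had no count in either FGF2 library and 1 and 2 counts in the others. A count of 7 was reached by Tnfrsf11b (osteoprotegerin) and Ltb in an FGF2 library each and by Tnfsf18 in a library without FGF2. For 3 ligands the count is also limited by annotation: 48.3% of the exonic bases of Tnfsf12 and 60.0% of those of Tnfsf13 lie in the readthrough gene Tnfsfm13 on the same strand, so that reads there belong to more than 1 gene and may be set aside as ambiguous.

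Levels of different receptors were compared per kilobase of exon. Summed over the 25 receptors, the level was 101.8 and 98.6 CPM per kb with FGF2 and 69.9 and 68.9 CPM per kb without it, higher in both FGF2 libraries. Most of that difference lay in Fas, at a mean of 21.4 against 3.39 CPM per kb, and Tnfrsf1a, at 20.5 against 10.8 CPM per kb. In CPM, not divided by exon length, the 15 TRAF-binding receptors summed to 100.7 and 102.5 with FGF2 and 102.4 and 101.4 without it. The 4 decoys summed to 11.1 and 9.05 against 10.8 and 9.14 CPM. The sums in CPM thus overlapped, with a fall of Tnfrsf19 beside rises of Ltbr, Tnfrsf1b and Tnfrsf9 among the TRAF-binding receptors. Per kilobase the long Tnfrsf19 weighs less, at a mean of 7.97 with FGF2 against 13.45 without it. Ltbr was at 15.6 against 10.5 CPM per kb. The overlap of the TRAF-binding sum therefore holds for CPM only. Without FGF2 Tnfrsf21 led with 28.4% and 31.4% of the receptor sum per kb, followed by Tnfrsf19 with 19.4% in both libraries. With FGF2 Fas led with 21.0% and 21.7%, from 4.82% and 4.94% without it, and Tnfrsf1a followed with 21.0% and 19.9%. In FGF2 replicate 1 Fas and Tnfrsf1a were level, so their order rests on replicate 2. Tnfrsf21 stood at 18.3% and 18.0% with FGF2, and Tnfrsf19 at 7.59% and 8.34%. Ltbr took almost the same share in every library, between 15.0% and 15.6%. Fas was 1.15 and 1.21 times the level of Tnfrsf21 with FGF2 and 0.170 and 0.157 times without it. These shares are set by the same values as the fold changes and are a description with no test of their own.

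**Figure D3:**
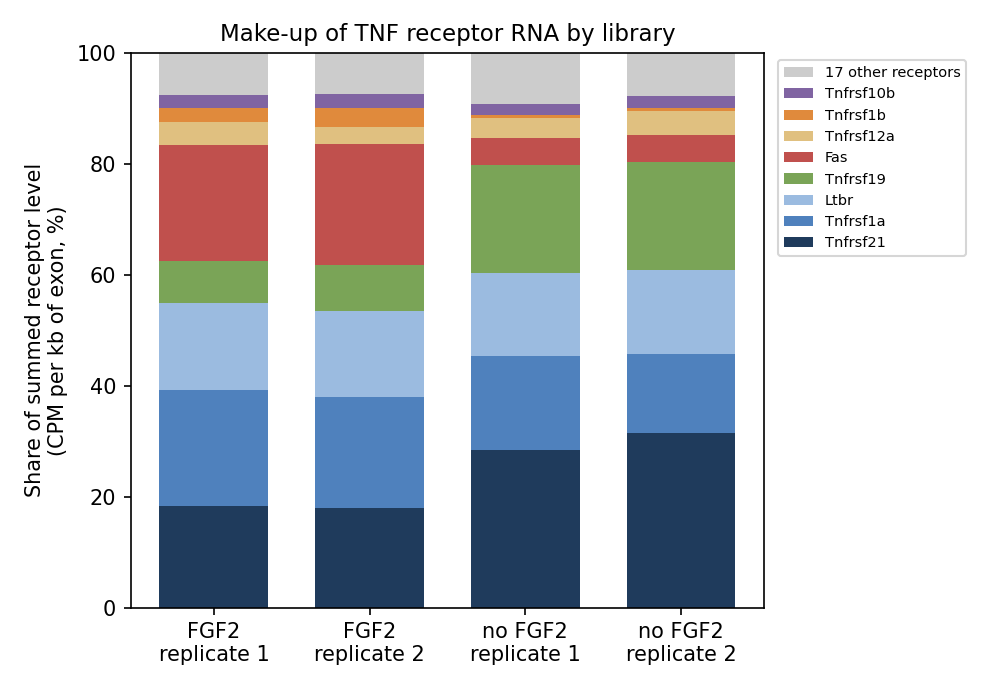
Share (%) of each receptor in the summed receptor level (CPM per kb of exon) in each of the 4 libraries. The 8 receptors with the largest mean share with FGF2 are in colour and 17 others in grey. Fas takes 21.0% and 21.7% with FGF2 and 4.82% and 4.94% without it, and Tnfrsf21 and Tnfrsf19 take less with FGF2.

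The machinery downstream of the receptors was described by lists of genes. The counts of every list stand beside 20.7% higher and 19.9% lower, 40.5% in all, over all 17144 genes tested. Of 21 adaptors and ubiquitin enzymes that act at the receptors, 8 were higher with FGF2, 3 were lower and 10 did not pass, with a median log2 fold change of 0.16. The largest rises were those of Birc3 (cIAP2) at 3.39, Birc2 (cIAP1) at 0.80 and Ripk1 at 0.57, all on the log2 scale. Beside Edaradd, the falls were those of Traf3, by 0.26, and of Rbck1 (HOIL-1), by 0.24, and the latter was lost with DESeq2 (adjusted p = 0.202) and without any of 3 libraries in turn (edgeR adjusted p = 0.0539 to 0.164). Birc2 and Birc3 encode the ubiquitin ligases that TRAF2 brings to the receptors, and Traf3 encodes a brake on non-canonical NF-kB. The death domain adaptors Tradd and Fadd did not pass, both at 0.21 on the log2 scale (edgeR adjusted p = 0.609 and 0.437).

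Of the 10 genes of the extrinsic death pathway, 8 were tested, and 5 were higher, 1 lower and 2 did not pass, with a median of 0.35. Casp8, the initiator caspase, rose by 1.20 on the log2 scale (± 0.34 SE, edgeR adjusted p = 0.00149), and Cflar, whose product c-FLIP restrains caspase-8, rose by 0.96 (± 0.10 SE, edgeR adjusted p = 6.50e-21). Initiator and inhibitor thus both rose, although the rise of Casp8 was lost with DESeq2 (adjusted p = 0.0837) and without the no-FGF2 replicate 1 (edgeR adjusted p = 0.102). Ripk3 and Mlkl, which carry out necroptosis, were too low to be tested.

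Most NF-kB genes tested were higher with FGF2. Of 9 IKK and NF-kB subunits, 7 were higher, none was lower and 2, Chuk and Ikbkg, did not pass, with a median log2 fold change of 0.99. Nfkb2 rose by 2.04, Relb by 2.02 and Nfkb1 by 1.35. All 10 genes of the NF-kB feedback list, several of which act to limit NF-kB, were higher, with a median of 2.73. The activity of NF-kB itself was not tested. Tnfaip2 rose by 4.94 and Tnfaip3 (A20) by 3.27 on the log2 scale, and Bcl3 went from 0 and 2 counts without FGF2 to 116 and 90 with it. These lists were chosen with results of these data known, so the counts are a description. Of all genes tested, 20.7% were higher and 19.9% lower.

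Of 8 genes that act on the release of ligands from the membrane, 7 were higher and 1 was lower, with a median of 0.45. The higher ones include Timp3, the inhibitor of ADAM17, which rose by 0.32 on the log2 scale (± 0.05 SE, edgeR adjusted p = 1.77e-09). Adam17, the TNF sheddase, rose by 0.58 on the log2 scale, and its cofactors Rhbdf2, Frmd8 and Rhbdf1 rose by 1.81, 1.21 and 0.78. Sppl2b, a protease that cleaves the membrane stub of TNF, fell by 0.36 (edgeR adjusted p = 8.06e-04), a call lost with DESeq2 (adjusted p = 0.0626) and without FGF2 replicate 2 (edgeR adjusted p = 0.0693). Sppl2a, on the same list, went the other way and rose by 0.31 (edgeR adjusted p = 9.20e-04). Superfamily genes with other symbols did not pass: for Ngfr (p75) and Relt the log2 fold changes were both -0.49 (edgeR adjusted p = 0.546 and 0.210). Cd40lg was at 0 in every library, and Cd70 reached 3 and 4 counts in the FGF2 libraries and none in the others.

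**Figure D4:**
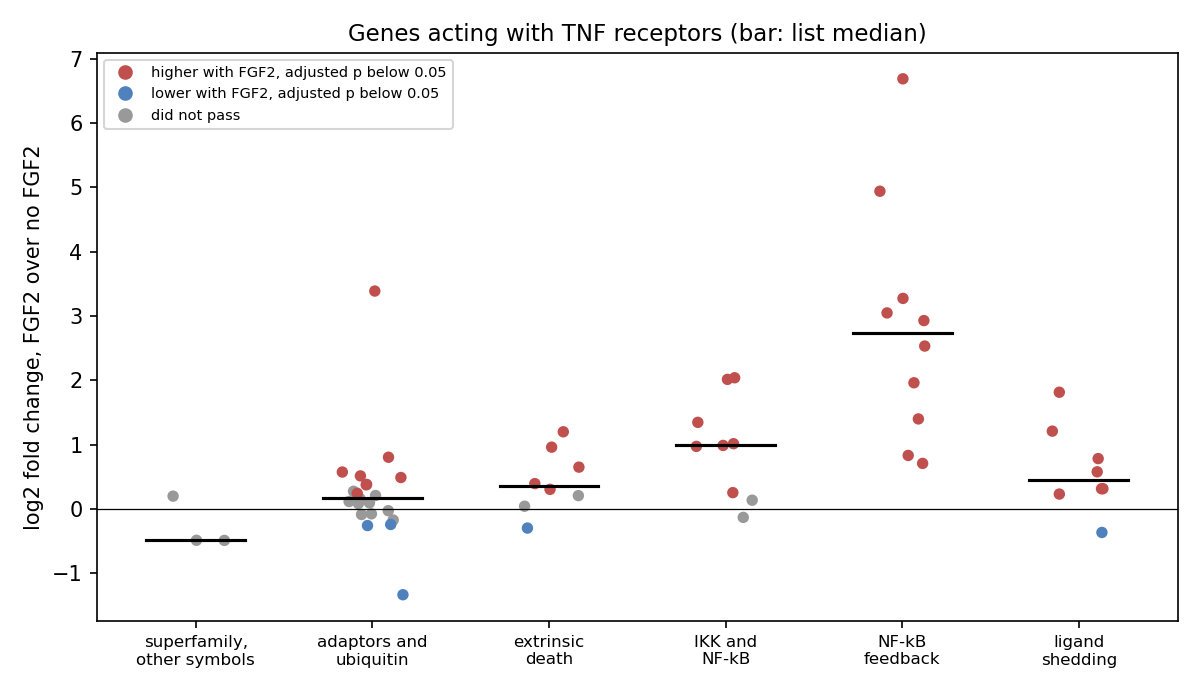
Log2 fold change, FGF2 over no FGF2, of the tested genes of 6 lists of genes that act with TNF receptors, each point a gene and each bar a list median. The medians run from -0.49 for superfamily genes with other symbols to 2.73 for NF-kB feedback genes, of which all 10 lie above 0.

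Markers of vascular and connective tissue cells were also read. Among 8 endothelial markers Cldn5 and Tie1 were at 0 in every library, and of 3 tested, Flt1 was higher (2.71 on the log2 scale, edgeR adjusted p = 1.13e-08), Kdr was lower (-0.95, edgeR adjusted p = 0.0476) and Pecam1 did not pass. Their sum was 7.73 to 10.1 CPM with FGF2 and 5.24 to 8.78 CPM without it. The 9 fibroblast and mural markers summed to 64.7 to 68.3 CPM against 53.8 to 55.3 CPM, with 2 higher, 2 lower and 3 that did not pass. Most of that sum was Pdgfrb, at a mean of 47.9 CPM with FGF2 against 28.8 CPM without it. Pdgfrb and Rgs5 were higher, whereas the collagen genes Col1a1 and Col1a2 fell by 2.18 and 1.73 on the log2 scale. Over all genes tested, 20.7% were higher and 19.9% lower. The part of these cell types in the receptor levels was not tested.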

How the data were processed

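RNA-seq libraries of mouse P0 PFC cultures were analysed, 2 with and 2 without FGF2, grouped by their labels. The authors mapped reads to mm10 with HISAT2 2.1.0, kept those with a mapping quality of at least 20 (Samtools) and deposited raw counts per gene from HTSeq 0.11.2, versions being those of the submitters' processing notes. The annotation release and the strand setting are not given in the sources used here. Multi-mapping reads are lost by the quality filter, so genes with near-identical copies can be counted too low. A set of 5 tally entries (no feature, 43.2% to 45.9%, ambiguous, 1.47% to 1.77%, and others) was left out.

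Of 55421 genes, 55240 matched GENCODE M21 by identifier, which gave symbols, positions and exonic lengths. Counts were tested with edgeR 4.0.16 (R 4.3.3): TMM, its expression filter (17144 genes kept), robust quasi-likelihood fit and Benjamini-Hochberg adjustment over all genes kept, at 0.05. The biological coefficient of variation was 3.9%. The fits were tested on simulated counts. Replicates differed by more than sampling noise (chi-square per degree of freedom 2.29 and 1.76). Same-numbered libraries did not deviate together (correlation 1.3e-05), so they were not treated as pairs. Near-identical stretches were sought with BLAST 2.17.0.

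The named genes are every member of the family, with values in full for those called, and, of each pathway list, the 3 largest rises and 3 largest falls that passed, together with Cd40lg, Cd70, Ngfr, Relt and Eda2r. Chuk, Ikbkg, Tradd, Fadd, Ripk3, Mlkl and the marker genes were named as members of their lists, and Adam17, Timp3 and Sppl2a were picked once values were known. A few genes covered by this rule are not reported here. Members and lists were chosen with earlier results of these data known. Alternatives tried were scaling by RLE, by the upper quartile or by total counts, no filter, at least 10 or more than 10 counts in every library, prior count 1, DESeq2 1.42.0, limma-voom (limma 3.58.1), the replicate number as a block, a threshold of 0.01 and each library left out in turn.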

Additional observations from a re-analysis of the deposited data

How the results depend on the processing

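The 9 genes that rose became 8 with DESeq2, at a threshold of 0.01, and without each of 3 libraries in turn, and 6 where every library had to hold at least 10 counts, a filter under which 5 measured genes gave no value. The 2 that fell became 1 with DESeq2 and at a threshold of 0.01, and 1 to 2 when a library was left out. Eda and Tnfrsf21 account for each loss beyond that filter, and the cause was not tested. The other called members kept direction and call under every alternative that gave a value. The median of the measured genes, 0.43, was 0.46 to 0.59 when a library was left out and 0.40 to 0.43 under the other settings. Over all genes, 3541 rose and 3408 fell by edgeR, against 2068 and 1939 by DESeq2. Genes that did not pass turned direction in 3 cases: with a library left out, the log2 fold change ran from -0.35 to 0.58 for Tnfrsf4, from -0.42 to 0.041 for Tnfrsf22 (both turned without FGF2 replicate 2), and from -0.15 to 0.62 for Tnfrsf23 (without the no-FGF2 replicate 2).

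With the replicate block, 9 genes rose and 2 fell, the median was 0.43, and no call of a member changed. Whether same-numbered libraries were prepared together is not stated, and neither the block nor the correlation given above can exclude it.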
